A study of Homo sapiens with 12 samples.

Results

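ANPEP, DPP4, MME and ENPEP code for peptidases that are anchored in the plasma membrane with the active site outside the cell, and are described here as the membrane ectopeptidases. They were chosen by gene symbol, with their levels in both cell populations and the opposite direction of ANPEP with irradiation already known, so these values are given as a description with no test. All 4 symbols were found among the 23284 genes listed. Of these 4, ENPEP did not pass the filter used for tests (at least 1 FPKM in at least 2 libraries, which left 12946 genes), and DPP4 and MME passed only through libraries of one population.

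Ectopeptidases trim peptide hormones, chemokines and matrix fragments at the cell surface, and so end or change their signals. ANPEP (aminopeptidase N, CD13) and ENPEP (aminopeptidase A) are zinc enzymes of the M1 family that remove single amino acids from the amino end, neutral ones and acidic ones respectively. DPP4 (CD26) is a serine peptidase that removes dipeptides after proline or alanine, and its substrates include incretins and CXCL12. MME (neprilysin, CD10) is a zinc endopeptidase that cuts short peptides such as enkephalins, substance P and endothelins. All of them are known from the brush border of intestine and kidney, and several serve as surface markers of blood cells and of some tumours.

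The cells were PANC-1, a human pancreatic cancer line, infected with a retrovirus for the green protein ZsGreen fused to the degron of ornithine decarboxylase, which accumulates where proteasome activity is low. All cells were under G418 selection. The infected line as a whole, with few ZsGreen-positive cells, was called degron (−), and the most ZsGreen-positive cells of a line enriched by repeated sorting were called degron (++). Each population was sequenced in 3 groups of 2 libraries, namely without irradiation (0 Gy) at 48 h, with 4 Gy of gamma rays at 30 h and with 4 Gy at 48 h, 12 libraries in all. The starting point of these hours is not in the labels, and no 0 Gy library was taken at 30 h. Below, 30 h or 48 h after 4 Gy names the 4 Gy group with that label, and not a known interval since irradiation. The libraries taken as degron (−) are called ZsGreen-negative in their titles but d+ in their descriptions. The enriched line before its last sort is known as degron (+), so d+ could also stand for that line, and each difference between the populations would then compare the sorted cells with their own enriched line. The grouping here follows the titles. A single line and a single infected population limit both arms as a model, and nothing states that the 2 libraries of a group came from separate cultures, so p-values measure only the spread between these samples, which may be technical.

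The values are FPKM (fragments scaled to exon length and to the number of mapped reads), deposited per gene, with no counts, so that the depth is unknown. Epithelial markers were abundant (summed FPKM of 7 genes 7220 to 8410 in degron (++) and 4240 to 5160 in degron (−)), and all 7 were higher in degron (++) in all 3 conditions, 6 after rescaling to TPM and 5 after quantile normalization. Without such rescaling, 32.9% of all genes tested were higher in degron (++) in all 3. Of 6 blood markers, 5 were below 1 FPKM throughout, with CD3E listed at 0 (sums 1.54 to 2.06 against 0.250 to 1.11), and the sixth, the monocyte marker CD14, was higher in degron (++) in all 3 conditions (1.45 to 1.92 against 0.187 to 1.02). Of the degron (−) libraries, only replicate 1 at 48 h with 4 Gy reached 1 FPKM for CD14. The gene thus passed the filter through degron (++), and the filter favoured its direction. Below 1 FPKM throughout were all 4 endothelial markers (sums 0.296 to 0.576 against 0.0260 to 0.104). Of 5 fibroblast markers, COL1A2 and DCN were listed at 0, and the sum of 14.4 to 25.4 in degron (++) was mostly LUM while that of 37.1 to 53.9 in degron (−) was mostly COL1A1. The FPKM of a library summed to 829654 to 916877 in degron (++) and to 707273 to 763064 in degron (−), and a single gene, MIR622, held 28.6% to 30.0% and 22.5% to 27.1% of these sums.

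The stretch around the active site is shown for each gene, since it sets the enzymes apart by class. The 45 bases are coding sequence of GENCODE v29 on GRCh38, and capitals mark the 5 codons of the zinc-binding motif, or, for DPP4, the 5 codons around the active serine.
ANPEP: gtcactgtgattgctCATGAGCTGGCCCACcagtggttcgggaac
ENPEP: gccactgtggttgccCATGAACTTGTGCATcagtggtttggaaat
MME: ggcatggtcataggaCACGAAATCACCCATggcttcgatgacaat
DPP4: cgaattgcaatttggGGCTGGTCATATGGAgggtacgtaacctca
The ANPEP stretch lies on the minus strand within chr15:89803991-89804285, in exons 6 and 7 of 21, with the motif from codon 388 of 967. That of ENPEP lies on the plus strand within chr4:110509775-110510256, in exons 5 and 6 of 20, with the motif from codon 393 of 957. That of MME lies on the plus strand at chr3:155166976-155167020, in exon 18 of 23, with the motif from codon 584 of 750. That of DPP4 lies on the minus strand within chr2:162008638-162009261, in exons 21 and 22 of 26, with the marked codons from codon 628 of 766. ANPEP and ENPEP shared 34 of the 45 bases, whereas MME shared 21 with ANPEP and 22 with ENPEP.

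ANPEP has 2 known transcription starts. The distal one is known for use in myeloid cells and fibroblasts, and the proximal one for use in intestinal epithelium. RefSeq (GRCh38.p14) places them 8224 bases apart on the minus strand. The 250 bases before each start are shown because the FPKM of ANPEP add up the transcripts of both, and capitals mark motif letters found by search on both strands.
Distal, chr15:89814853-89815102: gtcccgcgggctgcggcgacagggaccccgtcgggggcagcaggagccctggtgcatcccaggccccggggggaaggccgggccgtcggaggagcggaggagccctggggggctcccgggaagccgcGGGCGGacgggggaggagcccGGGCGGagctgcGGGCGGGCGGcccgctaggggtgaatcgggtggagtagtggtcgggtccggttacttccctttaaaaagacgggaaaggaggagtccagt
Proximal, chr15:89806629-89806878: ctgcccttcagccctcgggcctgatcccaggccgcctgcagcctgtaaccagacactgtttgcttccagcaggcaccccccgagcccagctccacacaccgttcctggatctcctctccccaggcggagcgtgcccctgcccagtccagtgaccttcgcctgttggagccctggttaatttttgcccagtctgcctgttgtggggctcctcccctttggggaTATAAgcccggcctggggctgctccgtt
The motifs searched were the TATA box (TATAA), the CAAT box (CCAAT), the GC box (GGGCGG), the site of the factor AP-1 (TGANTCA) and the core of the site of ETS factors (CCGGAA). The distal window, with a GC content of 74.0%, held GGGCGG 4 times, with overlap between the last 2, and none of the others. The proximal window, with a GC content of 64.4%, held TATAA 28 bases before the start and none of the others. Among 35116 RefSeq promoter windows of the same length, 42.6% held GGGCGG and 18.9% TATAA. A match is a description of letters and not of a bound site.

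Of the 4 members, ANPEP had the widest gap between the populations. In degron (++) cells its levels were 5.88 and 5.32 FPKM at 0 Gy, 3.47 and 4.25 FPKM at 30 h after 4 Gy, and 3.01 and 3.49 FPKM at 48 h after 4 Gy. In degron (−) cells they were 113 and 123 FPKM at 0 Gy, 156 and 151 FPKM at 30 h after 4 Gy, and 155 and 148 FPKM at 48 h after 4 Gy. Every degron (−) library was thus far above every degron (++) library. Such a lack of overlap, in either direction, was seen for 71.3% of all genes tested, and the members' own values were part of their choice. The mean FPKM were 5.60 ± 0.396 (SD, n = 2) and 118 ± 6.68 (SD, n = 2) at 0 Gy, a ratio of 21.0. With 4 Gy the ratio was 39.7 at 30 h and 46.6 at 48 h. On the log2(FPKM + 1) scale, on which all differences below are given, degron (++) minus degron (−) was -4.17, -4.99 and -5.17 in these 3 conditions, each with an SE of 0.087. Of the 12946 genes tested, these differences were at place 100, 47 and 35 from the lowest. By level, ANPEP held places 550 to 815 of 23284 genes in the degron (−) libraries and places 8420 to 9937 in the degron (++) libraries. ANPEP is also a marker of myeloid cells and fibroblasts, and the blood and fibroblast markers did not share 1 direction with it. LYZ and CSF1R reached at most 0.0740 and 0.110 FPKM in any library, and CD14 was higher in degron (++). COL1A1 was at 36.5 to 52.3 FPKM in degron (−) and 0.531 to 0.826 FPKM in degron (++) cells, LUM was at 0.290 to 1.61 against 13.8 to 24.7 FPKM, and COL1A2 and DCN were listed at 0. Their part in the ANPEP difference was not tested.

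**Figure D1:**
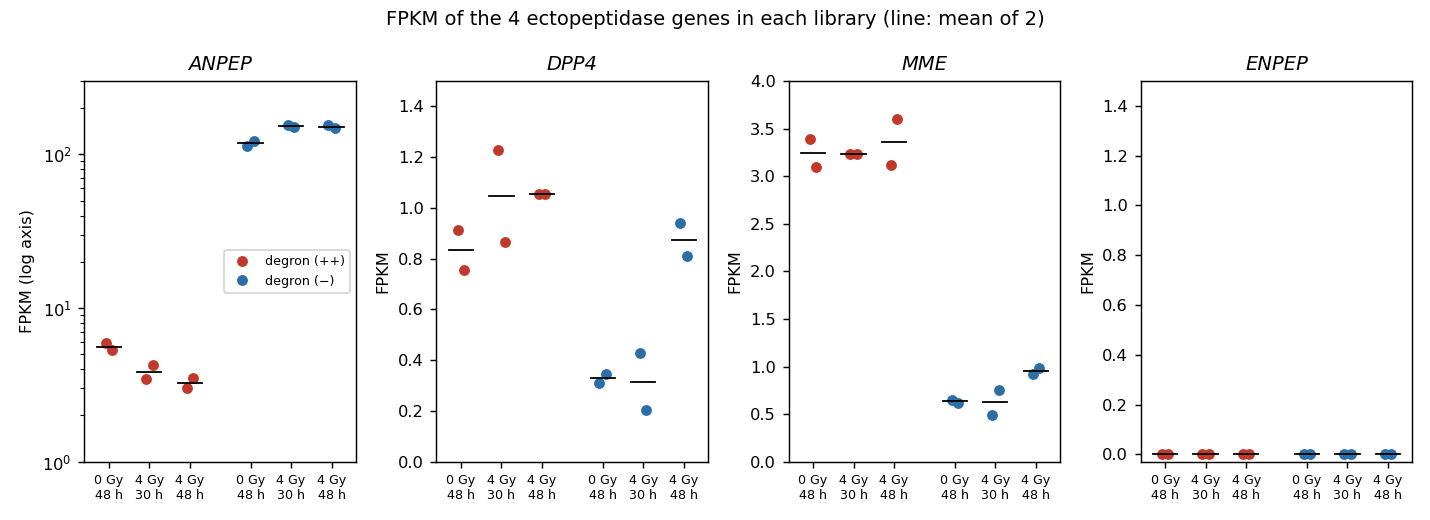
FPKM of ANPEP (log axis), DPP4, MME and ENPEP in each of the 12 libraries (points), with the mean of the 2 libraries of a group as a line; degron (++) in red, degron (−) in blue. ANPEP lies at 3.01 to 5.88 FPKM in degron (++) and 113 to 156 FPKM in degron (−), MME shows the reverse order at far lower levels, the DPP4 points of both populations overlap, and ENPEP is listed at 0 throughout.

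MME had the reverse order. Its levels in degron (++) cells were 3.39 and 3.09 FPKM at 0 Gy, 3.23 in both libraries at 30 h after 4 Gy, and 3.11 and 3.60 FPKM at 48 h after 4 Gy. In degron (−) cells they were 0.651 and 0.615 FPKM at 0 Gy, 0.496 and 0.756 FPKM at 30 h after 4 Gy, and 0.918 and 0.99 FPKM at 48 h after 4 Gy. No degron (−) library reached the lowest degron (++) library, and the degron (−) libraries all stayed under 1 FPKM. The ratio of the mean FPKM was 5.12 at 0 Gy, 5.16 at 30 h and 3.52 at 48 h after 4 Gy, and the fitted differences were 1.38, 1.38 and 1.16 (SE 0.095).

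DPP4 was low in both populations. In degron (++) cells it was at 0.914 and 0.756 FPKM at 0 Gy, 1.23 and 0.866 FPKM at 30 h after 4 Gy, and 1.05 in both libraries at 48 h after 4 Gy. In degron (−) cells it was at 0.312 and 0.347 FPKM at 0 Gy, 0.427 and 0.203 FPKM at 30 h after 4 Gy, and 0.942 and 0.809 FPKM at 48 h after 4 Gy. The populations overlapped, because the degron (−) libraries at 48 h after 4 Gy reached the range of degron (++). The fitted difference between the populations was 0.46 at 0 Gy and 0.64 at 30 h but 0.13 at 48 h after 4 Gy (SE 0.116). After rescaling to TPM, by which the median of all genes went from -0.01 to -0.25 in this last condition, it was 0.00.

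ENPEP was listed at 0 in all 12 libraries, so no fold is given for it. In bulk RNA, fewer cells that make a transcript and less of it in each cell cannot be told apart, which holds for all levels given here.

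At 0 Gy and at 30 h after 4 Gy the order of the 4 genes was the same in both populations, while the gaps between them differed. In degron (−) cells ANPEP came far above MME and DPP4, and MME lay above DPP4 in every group except 48 h after 4 Gy, where their libraries overlapped. In degron (++) cells ANPEP and MME lay above DPP4. There ANPEP was above MME at 0 Gy and at 30 h, and at 48 h after 4 Gy the libraries of both overlapped, at 3.01 to 3.49 and 3.11 to 3.60 FPKM. Over the 6 groups, neighbours in the order of ANPEP levels whose libraries overlapped were the 30 h and 48 h groups at 4 Gy, in both populations.

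With 4 Gy at 48 h, ANPEP stood in opposite directions in both populations. In degron (++) cells the mean was 5.60 ± 0.396 FPKM at 0 Gy and 3.25 ± 0.340 FPKM at 4 Gy (SD, n = 2), so that both irradiated libraries, at 53.7% and 62.3% of the unirradiated mean, lay below both others. In degron (−) cells the mean was 118 ± 6.68 FPKM at 0 Gy and 151 ± 4.31 FPKM at 4 Gy (SD, n = 2), and both irradiated libraries, at 131% and 126% of the unirradiated mean, lay above. The fitted differences, 4 Gy minus 0 Gy, were -0.64 in degron (++) and 0.36 in degron (−), each with an SE of 0.087, and they differed by -1.0 (SE 0.123). These contrasts chose the gene, so no test is given. The same arrangement of the 8 libraries at 48 h was seen for 3.82% of all genes tested, and the mirror image of it for 3.65%. ERAP2, another M1 aminopeptidase, had it too, with means of 48.9 FPKM at 0 Gy and 43.6 FPKM at 4 Gy in degron (++). In degron (−) its means were 12.1 and 14.8 FPKM. So did RNPEP, also of the M1 family, with 69.0 and 65.7 FPKM in degron (++) and 45.4 and 46.3 FPKM in degron (−). DPP7, a prolyl peptidase, had the mirror image. The limma interaction of dose and population had an adjusted p of 0.0657 for ERAP2, 0.356 for RNPEP and 0.208 for DPP7, so none was under 0.05. The RNPEP dose differences were -0.07 in degron (++) and 0.03 in degron (−), with adjusted p of 0.271 and 0.647 by limma. By size, the degron (++) difference of ANPEP was at place 66 from the lowest and its degron (−) difference at place 593 from the highest of 12946 genes. At 30 h after 4 Gy, degron (++) libraries were at 62.0% and 75.9% and degron (−) libraries at 132% and 128% of the unirradiated means at 48 h. Between 30 h and 48 h after 4 Gy, ANPEP differed by -0.19 in degron (++) and by -0.02 in degron (−) (SE 0.087). The degron (++) value was -0.31 and -0.08 without replicate 1 or 2 at 30 h, and -0.11 and -0.27 without replicate 1 or 2 at 48 h after 4 Gy.

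**Figure D2:**
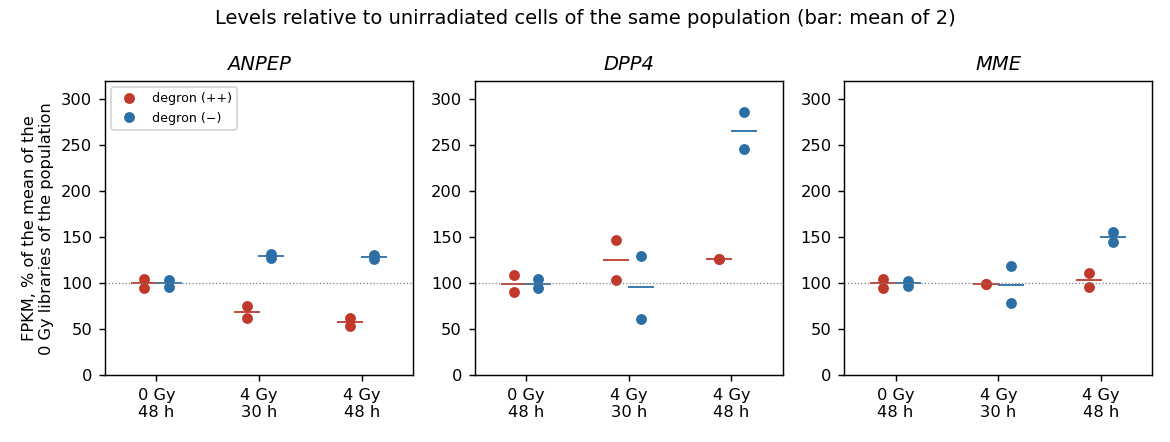
FPKM of ANPEP, DPP4 and MME in each library as a percentage of the mean of the 0 Gy libraries of the same population (points; bars are means of 2 libraries; the dotted line is 100%). With 4 Gy at 48 h, ANPEP lies at 53.7% and 62.3% in degron (++) and at 131% and 126% in degron (−), while DPP4 in degron (−) lies at 286% and 246%.

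DPP4 and MME, for which these contrasts were not used in the choice, were tested with limma over all genes, with Benjamini-Hochberg adjustment. DPP4 rose in degron (−) cells, from 0.330 ± 0.0247 FPKM at 0 Gy to 0.875 ± 0.0940 FPKM at 4 Gy and 48 h (SD, n = 2), a difference of 0.50 (SE 0.116, adjusted p = 0.0493). In the same cells, 4.73% of all genes passed the threshold of 0.05 with dose, 3.85% of them as rises. DPP4 also rose between 30 h and 48 h after 4 Gy, from 0.315 ± 0.158 FPKM (SD, n = 2), by 0.52 (SE 0.116, adjusted p = 0.0335), where 7.18% of all genes passed, 6.01% as rises. The direction of both differences held under every alternative, but both calls lay close to the threshold and all 6 degron (−) libraries were below 1 FPKM. The dose call was lost in 9 of 12 fits that left out 1 library, among them each of the 4 libraries compared (adjusted p = 0.147 to 0.172), and the time call in 7 of 12, with the highest adjusted p, 0.158, without replicate 2 of degron (−) at 30 h after 4 Gy. In degron (−) cells, 3 of the 7 epithelial markers rose with dose and 4 of 7 with time, their sum being 4420 to 4800 FPKM at 0 Gy, 4240 to 4390 FPKM at 30 h and 5010 to 5160 FPKM at 48 h after 4 Gy. Their part in the DPP4 result was not tested.

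In degron (++) cells DPP4 differed by 0.16 with dose (95% interval -0.10 to 0.43, adjusted p = 0.521) and by 0.01 with time (-0.25 to 0.28, adjusted p = 0.994), where 1.82% and 1.21% of all genes passed. Neither passed the threshold, and the intervals do not show that DPP4 stayed the same. DPP4 passed the filter only through 4 Gy libraries of degron (++), with 1.23 FPKM at 30 h and 1.05 FPKM in both at 48 h. The filter thus favoured a rise with dose in degron (++), which also enters the dose interaction. Whether the populations differed in these responses was asked with an interaction term, chosen after the values were seen. The difference of the dose differences was -0.33 (-0.71 to 0.04, adjusted p = 0.415), and that of the time differences was -0.51 (-0.88 to -0.13, adjusted p = 0.150), where 0.0772% and 3.23% of all genes passed, so a difference between the populations was not shown for DPP4.

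MME passed the threshold in none of the 4 contrasts by limma, although the unadjusted p was 0.0247 with dose and 0.0206 with time in degron (−). In degron (−) cells both 4 Gy libraries at 48 h were above all 4 others. The difference was 0.26 with dose (95% interval 0.04 to 0.48, adjusted p = 0.168) and 0.27 with time (0.05 to 0.49, adjusted p = 0.136). In degron (++) cells the libraries overlapped, and the differences were 0.04 with dose (-0.18 to 0.26, adjusted p = 0.901) and 0.04 with time (-0.18 to 0.26, adjusted p = 0.895). The interaction terms were -0.22 for dose (adjusted p = 0.503) and -0.23 for time (adjusted p = 0.424). With 4 Gy at 48 h in degron (−) cells, the 3 genes thus lay on the same side of the unirradiated libraries, and in degron (++) cells ANPEP alone lay below them.

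Other peptidases were read from a list of 45 genes, of which 24 were tested and 5 were listed at 0 throughout. Between the populations 21, 21 and 19 of these 24 passed the threshold at 0 Gy, 30 h and 48 h after 4 Gy, against 77.7%, 79.1% and 76.7% of all genes. Of them 9, 8 and 7 were higher and 12, 13 and 12 lower in degron (++), and after rescaling to TPM 6, 5 and 5 were higher and 12, 15 and 16 lower. Of the 24, 5 reached 1 FPKM in degron (−) libraries alone, as 1021 of all 12946 genes did, so that their being lower was fixed by the filter. The median difference of the 24 was -0.08, -0.23 and -0.17 without rescaling, against -0.02, -0.02 and -0.01 over all genes. Of all calls, 48.3%, 48.5% and 48.3% were higher in degron (++), and 35.5%, 32.9% and 31.3% after rescaling to TPM.

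ANPEP stood opposite to most of its own family. Of 8 M1 aminopeptidases tested, 6 were higher in degron (++) in all 3 conditions and 1 was lower, whereas over all genes 32.9% were higher and 35.6% lower in all 3. After rescaling to TPM, 4 were higher and 1 lower. ERAP2, which trims peptides for antigen presentation in the endoplasmic reticulum, had the widest difference, with 42.6 to 49.5 FPKM in degron (++) and 11.4 to 15.2 FPKM in degron (−) cells (1.93 at 0 Gy, SE 0.046, adjusted p = 1.63e-09). LTA4H, which makes leukotriene B, followed at 103 to 109 against 47.3 to 54.8 FPKM (1.03 at 0 Gy, adjusted p = 9.49e-08), and NPEPPS, a cytosolic aminopeptidase, at 39.5 to 41.3 against 24.0 to 28.3 FPKM (0.62 at 0 Gy, adjusted p = 7.65e-06). These are enzymes of the inside of the cell. RNPEPL1 was the one that was lower, at 14.1 to 18.3 against 23.7 to 26.5 FPKM. TRHDE, which like ANPEP is an M1 ectoenzyme and inactivates thyrotropin-releasing hormone, did not pass the filter, with 0 to 0.0160 FPKM in degron (++) and 0.578 to 0.741 FPKM in degron (−) cells.

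Among the relatives of DPP4 and MME, none was higher in degron (++) in all 3 conditions. Of all genes tested, 32.9% were higher and 35.6% lower in all 3, and 7 and 3 genes are too few to set these families apart from that. Of 7 prolyl peptidases tested, 4 were lower in all 3 conditions, led by PREPL (9.74 to 11.2 against 21.2 to 25.9 FPKM) and followed by PREP, DPP9 and APEH. FAP, the nearest relative of DPP4, was at most 0.0690 FPKM. Of 3 genes of the neprilysin family tested, ECE1, an endothelin-converting enzyme, was lower in all 3 (44.0 to 50.03 against 57.4 to 68.3 FPKM). ECEL1, at 0 to 0.0310 against 0.931 to 2.23 FPKM, was lower as well, but it passed the filter through degron (−) libraries alone, so its direction was fixed by it.

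Of 6 further surface or secreted peptidases tested, 4 were lower in degron (++), and all 4 passed the filter through degron (−) libraries alone, so their direction was fixed by it and their values are a description. GGT7 was at 0 to 0.0730 FPKM in degron (++) and 4.57 to 6.36 FPKM in degron (−) cells. ACE, which makes angiotensin II, was at 0 to 0.0920 against 3.23 to 4.07 FPKM. GGT5 was at 0 to 0.0440 against 1.75 to 2.31 FPKM, and CPM was at 0.604 to 0.731 against 2.53 to 4.17 FPKM. By ratio of the mean FPKM, degron (−) over degron (++), some of these gaps were wider than that of ANPEP. At 30 h after 4 Gy it was 157 for GGT7, 155 for ACE, 51.8 for GGT5 and 5.11 for CPM, against 39.7 for ANPEP. The first 3 of these ratios rest on degron (++) values near 0. CPZ, a secreted carboxypeptidase, was higher, at 12.3 to 15.1 against 1.32 to 3.15 FPKM. The counts for the prolyl peptidases, the neprilysin family and these 6 genes were the same after rescaling to TPM and after quantile normalization, except that 5 prolyl peptidases were lower after the first and ECE2 was higher after the second.

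**Figure D3:**
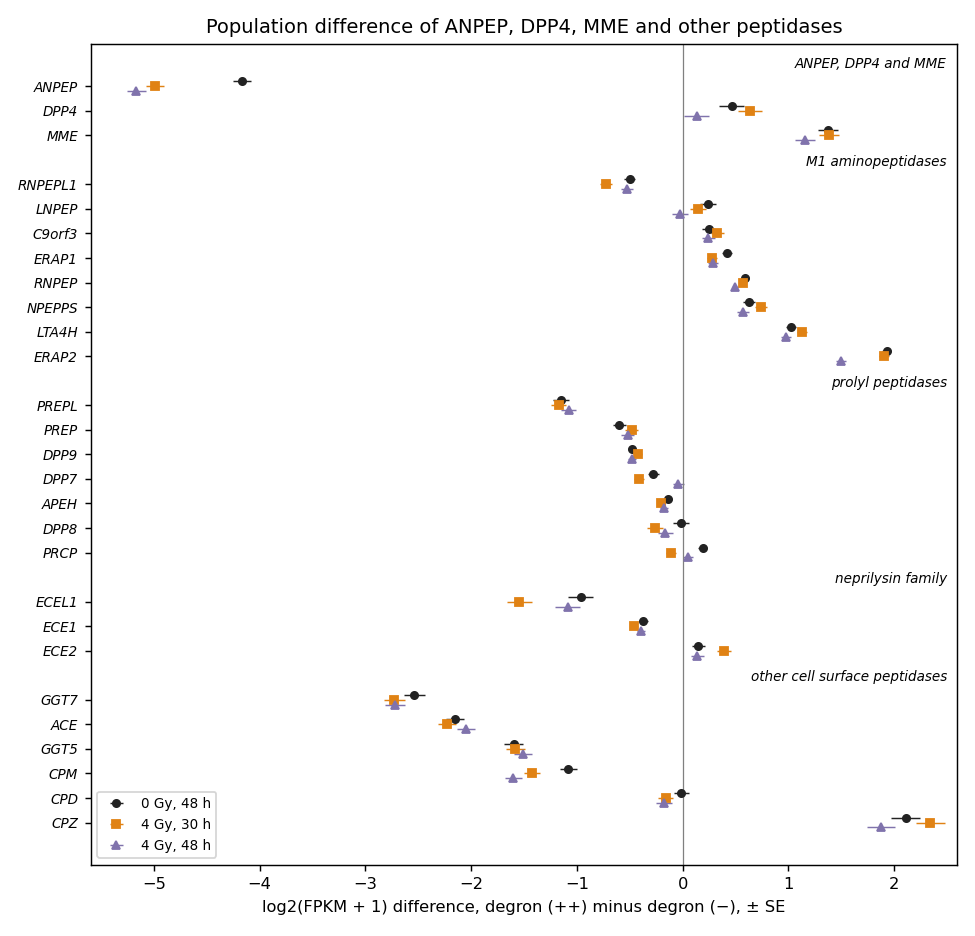
Difference in log2(FPKM + 1), degron (++) minus degron (−), with its SE, for ANPEP, DPP4, MME and the 24 other peptidases tested, at 0 Gy and 48 h (circles), 4 Gy and 30 h (squares) and 4 Gy and 48 h (triangles). On this scale ANPEP, at -4.17 to -5.17, lies to the left of all others shown, most M1 aminopeptidases lie to the right of 0, and the prolyl peptidases lie near or to the left of it. By ratio of the mean FPKM, ACE, GGT7 and GGT5 had wider gaps, from degron (++) values near 0.

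With dose, none of the 24 other peptidases passed by limma in degron (++) cells, where 1.82% of all genes did. The 6 with an unadjusted p under 0.05, all lower, were LNPEP (-0.24), CPD (-0.17), ERAP2 (-0.16), RNPEPL1 (-0.16), APEH (-0.11) and RNPEP (-0.07). The share of all genes under that unadjusted threshold was not counted, so this number has no background to be read against. In degron (−) cells, where 4.73% of all genes passed, 2 rose, ERAP2 by 0.27 (SE 0.046, adjusted p = 0.0174) and CPM by 0.51 (SE 0.077, adjusted p = 0.00971). There 8 of the 24 had an unadjusted p under 0.05, with RNPEPL1 (-0.14) and DPP7 (-0.13) lower and the others higher. With time after 4 Gy, DPP7, a lysosomal dipeptidyl peptidase, rose in degron (++) cells by 0.36 (SE 0.051, adjusted p = 0.0193), where 1.21% of all genes passed. In degron (−) cells, where 7.18% of all genes passed, ERAP2 rose by 0.31 (SE 0.046, adjusted p = 0.00558) and CPZ by 0.57 (SE 0.134, adjusted p = 0.0381). ECE1 fell there by 0.18 (SE 0.038, adjusted p = 0.0299). Each of these 6 calls was lost under at least 3 of the alternatives, with adjusted p of up to 0.284. Leaving out replicate 2 of degron (−) at 48 h after 4 Gy ended all 5 calls in degron (−) cells, with adjusted p of 0.113 for ERAP2 and 0.0778 for CPM with dose, and of 0.0534 for ERAP2, 0.213 for CPZ and 0.151 for ECE1 with time. The DPP7 call ended without either library at 30 h after 4 Gy or replicate 2 at 48 h (adjusted p = 0.0880 to 0.133), and other libraries ended 1 or more of the rest, with adjusted p of 0.0519 to 0.165.

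Few of the peptides and receptors that the ectopeptidases act on were measured at levels that allow a test, 3 of 27. Of all genes tested, 32.9% were higher and 35.6% lower in degron (++) in all 3 conditions, so differences between the populations are no trait of these 3. EDN1, the endothelin precursor whose product MME cuts, was lower in degron (++) (2.59 to 4.28 against 15.7 to 18.0 FPKM). It rose there with dose by 0.46 (limma, SE 0.072, adjusted p = 0.0253), where 1.82% of all genes passed. Whether this dose call holds under the alternatives was not examined. CCL5, a chemokine cut by DPP4, which passed the filter through degron (−) libraries alone, was lower, at 0 to 0.173 against 0.484 to 1.60 FPKM, but not in all 3 conditions after quantile normalization. CXCR4, the receptor of CXCL12, was higher, at 1.44 to 3.31 against 0.227 to 1.26 FPKM, but not in all 3 conditions after rescaling to TPM or with a pseudocount of 0.1. Of the degron (−) libraries, only replicate 1 at 48 h after 4 Gy reached 1 FPKM for it. CXCR4 thus passed the filter through degron (++), and the filter favoured this direction. CXCL12 itself was at most 0.0410 FPKM, and GCG and GLP1R, the incretin precursor and its receptor, were listed at 0.

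Of 7 genes for proteins described as binding DPP4 or ANPEP, 6 were tested. Over all genes, 32.9% were higher and 35.6% lower in degron (++) in all 3 conditions. FN1, the fibronectin that binds DPP4, was higher in degron (++) (12.5 to 18.2 against 1.20 to 2.56 FPKM), as were LGALS3, a galectin (252 to 266 against 102 to 135 FPKM), and CAV1, the caveolae protein (475 to 544 against 243 to 291 FPKM). IGF2R (17.1 to 19.2 against 57.5 to 73.1 FPKM) and RECK, a membrane protease inhibitor (0.240 to 0.296 against 2.01 to 2.45 FPKM), were lower in all 3 conditions, and RECK passed the filter through degron (−) libraries alone. ADA, the adenosine deaminase that DPP4 anchors, was lower in 2 of them, at 25.8 to 29.7 against 31.1 to 35.3 FPKM. In degron (−) cells LGALS3 rose with dose by 0.23 (adjusted p = 0.0261) and with time by 0.31 (adjusted p = 0.0055), and FN1 with time by 0.59 (adjusted p = 0.0098). There 4.73% of all genes passed with dose and 7.18% with time. Whether these calls hold under the alternatives was not examined.

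Of 9 transcription factors linked to the promoters of these genes, 4 were tested. All 4 passed in all 3 conditions between the populations, as did 32.9% of all genes as higher and 35.6% as lower in degron (++). GATA6 was higher in degron (++) (3.07 to 5.71 against 0.901 to 2.42 FPKM). CDX2, an intestinal factor (0 to 0.0410 against 1.51 to 2.001 FPKM), ETS2 (52.2 to 63.9 against 117 to 129 FPKM) and ETS1 were lower, and CDX2 passed the filter through degron (−) libraries alone. ETS1 rose with dose in both populations, by 0.25 in degron (++) (adjusted p = 0.0368) and by 0.21 in degron (−) (adjusted p = 0.0398), and fell by 0.37 with time in degron (++) (adjusted p = 0.0118). In these 3 contrasts 1.82%, 4.73% and 1.21% of all genes passed. Whether the ETS1 calls hold under the alternatives was not examined.

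On chromosome 15, the genes next to ANPEP that were tested did not share its direction. In the order of the RefSeq annotation, WDR93, MESP1 and MESP2 lie on one side and AP3S2, C15orf38 and ZNF710 on the other. The 4 that were tested were all higher in degron (++) at 0 Gy, MESP1 by 1.5 (adjusted p = 0.000307), C15orf38 by 1.30 (adjusted p = 9.61e-07), AP3S2 by 0.77 (adjusted p = 5.85e-06) and ZNF710 by 0.36 (adjusted p = 0.00212), where 37.6% of all genes were called higher. MESP2, the gene next to ANPEP, was lower in degron (++) by its values, 0.236 to 0.541 against 0.645 to 0.949 FPKM, and did not pass the filter. AP3S2 and C15orf38 can share reads, so their values are uncertain. Of the genes next to MME, ARHGEF26 was higher, by 1.88 (adjusted p = 6.47e-08), SLC33A1 was lower, by -0.27 (adjusted p = 0.0360), and DHX36 and C3orf33 did not pass. Next to DPP4, IFIH1, a sensor of double-stranded RNA, was higher by 1.17 (adjusted p = 7.71e-06) and PSMD14, a proteasome subunit, by 0.16 (adjusted p = 0.00215), while GCG and FAP, which lie between DPP4 and IFIH1, were at or near 0. Next to ENPEP, ELOVL6 was at 23.1 to 25.8 FPKM in degron (++) and 3.19 to 5.55 FPKM in degron (−) cells.

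The genes most like ANPEP were ranked by Pearson r on log2(FPKM + 1) over the 12 libraries, as a description with no test. MICAL1, an enzyme that oxidises actin, came first (r = 0.9991), followed by CCDC92 (0.9982), KIF3B, a kinesin subunit (0.9979), CYB5R2 (0.9977) and FBXO10 (0.9975). The libraries fall into both populations, and 759 of 12945 genes had an r above 0.99, so the order is largely one of the population difference. With Spearman rho, 2 of these 5 were again among the first 5. After the mean of each population was subtracted, the 5 genes were LYSMD4 (r = 0.9472), LRP1, an endocytic receptor (0.9325), ANO6, a lipid scramblase (0.9225), MICAL1 (0.9150) and PRKCD, a protein kinase C (0.9099). MICAL1 was in both lists, with a mean of 1.88 FPKM at 0 Gy and 1.32 FPKM at 4 Gy and 48 h in degron (++), and 14.3 and 17.0 FPKM in degron (−). PRKCD had the same directions with dose, from 17.0 to 14.1 FPKM in degron (++) and from 9.07 to 10.8 FPKM in degron (−), yet its level was higher in degron (++), opposite to ANPEP. All of these genes were picked from the same 12 libraries for this likeness.

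**Figure D4:**
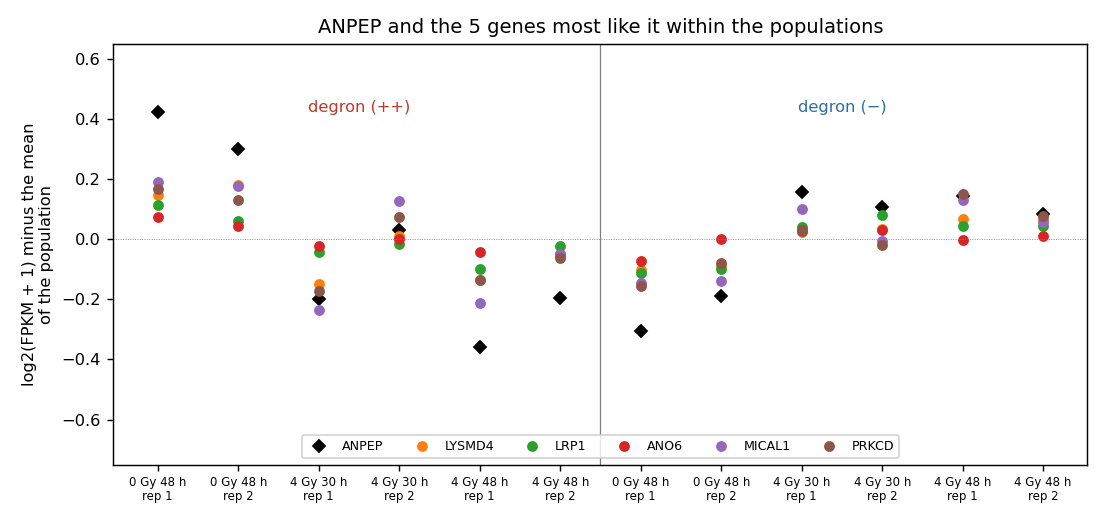
log2(FPKM + 1) minus the mean of the 6 libraries of the same population, for ANPEP (black diamonds) and the 5 genes with the highest Pearson r on this scale (coloured circles), in each of the 12 libraries. In degron (++) the 0 Gy libraries lie above 0 and the 4 Gy libraries at 48 h below it for ANPEP, in degron (−) the order is reversed, and the other 5 genes span a narrower range.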

How the data were processed

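RNA of the PANC-1 cells was prepared with a stranded mRNA kit, and the authors deposited FPKM per gene symbol for each of 12 libraries. The submitters' processing notes name TopHat2 2.1.1, Bowtie2 2.2.8, SAMtools 0.1.18, Cuffdiff 2.2.1 and hg19, without their roles. The annotation and the strand setting are not given in the sources used here. FPKM hold no counts, so the depth is unknown, and low values have steps that put the relative depth of the libraries at 0.859 to 1.165.

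From the FPKM, log2(FPKM + 1) was fitted in limma 3.58.1 (eBayes, trend on, R 4.3.3) for the 12946 genes that reached an FPKM of 1 in 2 or more libraries, with 6 group means over all 12 libraries, two-sided, and a threshold of 0.05 on the Benjamini-Hochberg adjusted p over all tested genes. The fit was checked on simulated data. The members, the gene lists and the tests were chosen with earlier results of these data known. All ANPEP contrasts and the population differences of the members were part of the choice and got no test.

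Named genes are the members, per list up to 3 highest and 3 lowest among genes past the threshold in all 3 population differences, listed genes past it with dose or time, the 5 genes most like ANPEP by each measure, and 3 neighbours on each side. Others named (TRHDE, FAP, CPM between the populations, ADA, APEH, ECE2, RNPEP, LNPEP, CPD, CXCL12, GCG and GLP1R) were chosen after their values were seen. A few genes of the lists are not reported here. Sequences came from RefSeq (GRCh38.p14) and GENCODE v29 (GRCh38), a build other than that of the FPKM, and only the order of neighbours was taken from it. The alternatives were another pseudocount, filter or scaling, no trend, a replicate block, fits on the libraries compared and leaving out each library. Tables were handled with Python 3.11.15, numpy 2.4.6 and pandas 2.3.3, and figures drawn with matplotlib 3.10.9.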

Additional observations from a re-analysis of the deposited data

Results flagged for a closer look

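The dose difference of ANPEP at 48 h was opposite in the populations, with both irradiated degron (++) libraries below and both irradiated degron (−) libraries above the unirradiated ones. The difference of the differences was -1.0 on the log2(FPKM + 1) scale, and -1.13 to -0.92 over 20 alternatives, and it was not tested because ANPEP was chosen for it.

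Between 30 h and 48 h after 4 Gy, ERAP2, the aminopeptidase of the endoplasmic reticulum, differed between the populations by -0.41 (limma interaction term, SE 0.065, adjusted p = 0.0180). It rose by 0.31 in degron (−) cells and was at 45.7 and 47.6 FPKM at 30 h and 44.5 and 42.6 FPKM at 48 h in degron (++). The interaction stayed past the threshold in 13 of 20 alternatives (adjusted p = 0.0140 to 0.0903) and was lost, among others, without any of 5 libraries at 4 Gy (adjusted p = 0.0553 to 0.0758), namely both of degron (++) at 30 h, replicate 2 of each population at 48 h and replicate 1 of degron (−) at 30 h. This time interaction passed the threshold for 3.23% of all genes.

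Over the same interval, DPP7, the lysosomal dipeptidyl peptidase, differed between the populations by 0.37 (limma interaction term, SE 0.072, adjusted p = 0.0318). It rose by 0.36 in degron (++) cells, from 38.3 and 38.7 to 47.3 and 52.3 FPKM, and was at 51.2 and 52.0 FPKM at 30 h and 52.6 and 49.7 FPKM at 48 h in degron (−). This interaction stayed past the threshold in 8 of 20 alternatives (adjusted p = 0.0260 to 0.110) and was lost without any of 8 libraries (adjusted p = 0.0532 to 0.110), that is, all but replicate 1 at 48 h after 4 Gy of each population and both degron (−) libraries at 0 Gy.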

How the results depend on the processing

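The population differences of ANPEP were -4.37, -5.28 and -5.50 at 0 Gy, 30 h and 48 h after 4 Gy with a pseudocount of 0.1, and -4.41, -5.31 and -5.46 after rescaling to TPM, which moved the median of all genes to -0.22, -0.28 and -0.25. With a pseudocount of 0.1 the ANPEP dose difference in degron (++) was -0.77. The population differences of DPP4 were 1.12, 1.5 and 0.25 with a pseudocount of 0.1 and 0.82, 0.95 and 0.59 after quantile normalization, and 0.00 in TPM at 48 h after 4 Gy. Those of MME were 2.19, 2.22 and 1.71, and 1.72, 1.70 and 1.53, under the same choices, and 1.06 in TPM at 48 h after 4 Gy. With a filter at FPKM 5, DPP4 and MME were not tested.

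The DPP4 dose call in degron (−) was lost with a pseudocount of 0.1 (1.18, adjusted p = 0.0525), no filter (0.50, 0.0893), TPM (0.58, 0.0650), quantile normalization (0.35, 0.0975) and only the libraries compared (0.50, 0.163). It was also lost in 9 of 12 fits without 1 library (0.44 to 0.55, adjusted p = 0.0501 to 0.172), and it held without replicate 2 of degron (++) or either replicate of degron (−) at 30 h. The DPP4 time call in degron (−) was lost with no filter (0.52, adjusted p = 0.0658), quantile normalization (0.32, 0.111), only the libraries compared (0.52, 0.137) and without any of 7 libraries (0.39 to 0.57, adjusted p = 0.0506 to 0.158), namely both of degron (++) at 0 Gy and at 48 h after 4 Gy, both of degron (−) at 48 h after 4 Gy and replicate 2 at 30 h. Over all 12 fits without 1 library it was 0.39 to 0.64. The limma tests that left out a library assume that the lone sample varies like the other groups.

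Small differences changed sign. These were the time difference of DPP4 in degron (++) after quantile normalization (-0.04) and without 1 library (-0.12 to 0.14), the dose difference of MME in degron (++) in TPM (-0.02) and without 1 library (-0.04 to 0.12), its time difference there after quantile normalization (-0.01) and without 1 library (-0.04 to 0.12), and the time difference of ANPEP in degron (−) without 1 library (-0.05 to 0.01, among them 0.00). The population difference of DPP4 at 48 h after 4 Gy was 0.08 to 0.18 without 1 library, and the time difference of ANPEP in degron (++) was -0.31 to -0.08.

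The count of other peptidases past the threshold was 0 with time in degron (++) in TPM and with only the libraries compared, and 0 to 1 without 1 library, against 1. It was 1 in TPM, 0 with only the libraries compared and 0 to 2 without 1 library for dose in degron (−), against 2, and 1, 0 and 0 to 3 for time in degron (−), against 3. Quantile normalization gave 3 for dose and 4 for time in degron (−), and for time the replicate block gave 4 and no filter 2. With Spearman rho, 2 of the 5 genes most like ANPEP were shared. The cause of these changes was not tested.

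The replicate numbers were taken as no pairing, since samples of equal number correlated by -0.038 to 0.122 over 15 pairs of groups and 2 pairs exceeded 0.1. With the replicate block the genes past the threshold went from 236 to 125 and from 156 to 88 for dose and time in degron (++), and from 612 to 479 and from 930 to 796 in degron (−), and no call for DPP4 or MME changed. Over all genes, fits without trend gave 128 and 78 calls in degron (++). No filter gave 121 and 99, TPM 58 and 38, and only the libraries compared 17 and 12 in degron (++) and 8 and 7 in degron (−). In degron (−), TPM gave 336 and 607 calls. Quantile normalization gave 149 for dose in degron (++). FPKM without counts allow no interval for counting error.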
